A study of Rattus norvegicus with 8 samples.

Results

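Tubulins and the proteins that bind, dismantle or walk along microtubules were followed through 7 genes: the beta-tubulins Tubb2b and Tubb5, the alpha-tubulin Tuba1a, the microtubule-associated proteins Map1b and Mapt, the tubulin-binding protein Stmn1 and the motor Kifc3. The members were every probe set annotated to one of these genes, 15 of 8740 that are not controls, and 12 of the 15 passed the filter on low signals. Of the 7 genes, 6 had at least 1 probe set of their own, among 4736 genes with one in all. Tuba1a had none: both probe sets that list it also list other alpha-tubulin genes, and they are described here as shared alpha-tubulin probe sets.

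RNA came from C6, a rat glioma cell line, on 8 oligonucleotide arrays in 4 groups of 2 that are titled C6slow, C6fast, C6SPGFPslow and C6SPGFPfast. Migration is named as the topic in the sample descriptions. The sources used here do not explain SPGFP, how fast and slow cells were told apart, or whether C6SPGFP is 1 clone. They also do not say that replicates came from separate cultures. The spread behind each p-value is therefore that between the deposited arrays, and it may be technical. The number of arrays limits the precision of every value.

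Microtubules are polymers of alpha- and beta-tubulin dimers that carry transport, shape cell processes and form the spindle of dividing cells. Tubb2b, Map1b and Mapt are best known from neurons, where tubulin isotypes and microtubule-associated proteins are needed for neurites to grow and for neurons to migrate. Stathmin (Stmn1) binds free tubulin and promotes disassembly, and kinesins are motors that use the polymer as a track.

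Signals were quantile normalised between arrays, because C6SPGFPfast replicate 1 had been deposited on another scale (2% trimmed mean 500.5, against 100.1 to 105.8 on the other 7 arrays). Changes are differences of log2(signal + 8), which understate the change of low signals, and folds are those of signal plus 8. A probe set was called where limma's two-sided adjusted p, over all 6686 probe sets tested, was under 0.05. Pearson's r across probe sets was 0.969 to 0.978 within groups, 0.899 to 0.939 between C6fast and the other groups, and 0.936 to 0.971 among those other groups. Vim, the vimentin filament that C6 cells make in large amounts, was present in every group, with mean signals of 2658 to 3711, and the astrocyte filament Gfap had no probe set of its own. In fast C6 cells 4 of the 12 tested member probe sets were called, all lower, against 6.66% of all probe sets, 2.69% higher and 3.96% lower. In C6SPGFP fast cells 1 of 12 was called, higher, against 1.39%, 1.06% higher and 0.329% lower. Between the sets 1 of 12 was called in slow cells, higher in C6SPGFP, against 6.33% (3.28% higher, 3.05% lower). In fast cells 5 of 12 were called, all higher in C6SPGFP, against 15.6% (8.24% higher, 7.36% lower). The change from slow to fast cells differed between C6SPGFP and C6 for 4 of 12, all more positive in C6SPGFP, against 3.81% of all probe sets, 2.71% more positive and 1.11% more negative. The call in C6SPGFP, and 1 each of the calls on the difference and in fast cells, came from a Mapt probe set that passed the filter only through the group where it was high. Without it none, 3 and 4 of the other 11 were called by limma. The 7 genes had been chosen with earlier results of these arrays known, and probe sets of 1 gene are not independent, so these shares describe the members and test nothing.

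**Figure D1:**
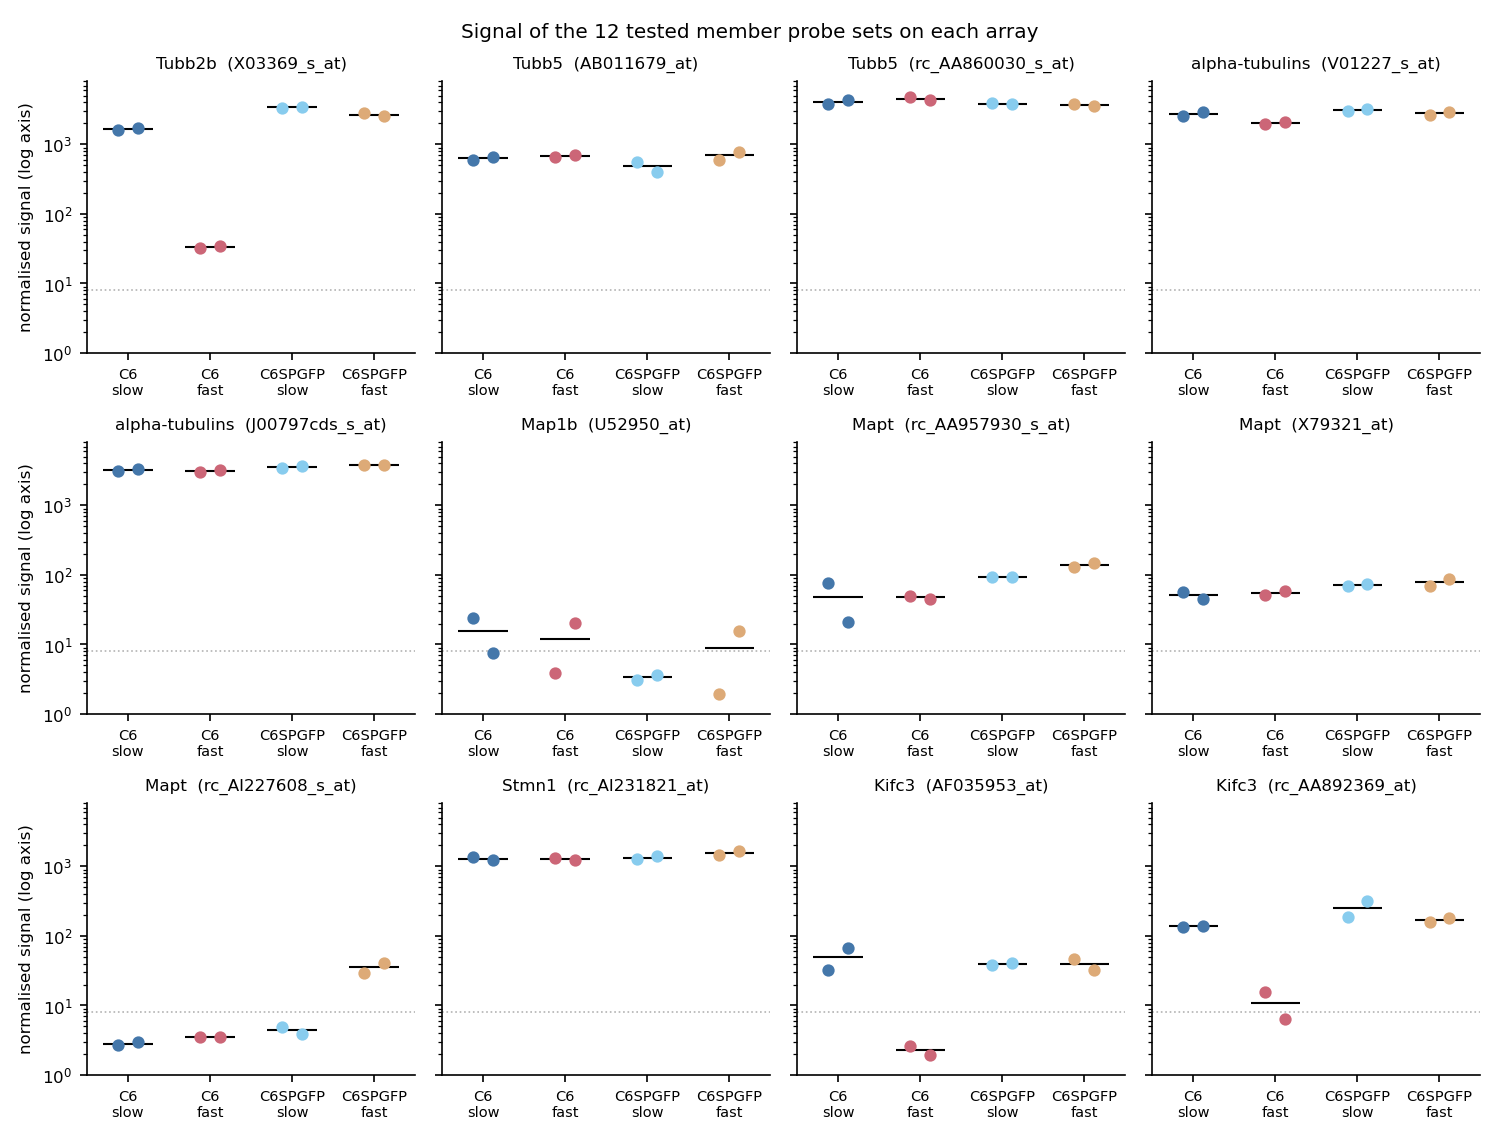
Quantile-normalised signal (log axis, arbitrary units) of the 12 tested member probe sets on each of the 8 arrays. Points are arrays, black bars are means of 2, and the dotted line marks a signal of 8. Tubb2b lay at 32 and 34.1 on the C6fast arrays and at 1630 or more on the other 6, and both Kifc3 probe sets were also lowest there.

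Tubb2b, a beta-tubulin isotype of the developing nervous system, was the member that varied most. The signal of probe set X03369_s_at was 1630 and 1743 on the slow and 32 and 34.1 on the fast C6 arrays. It was 3350 and 3465 on the slow and 2796 and 2535 on the fast C6SPGFP arrays. The groups did not overlap, and their order was C6SPGFPslow, C6SPGFPfast, C6slow and, far below, C6fast. In means the level fell from 1687 ± 79.7 to 33.1 ± 1.51 in fast C6 cells (SD, n = 2), 41.3-fold (log2 change -5.37 ± 0.12, SE; limma adjusted p = 1.32e-07). In C6SPGFP the means were 3407 ± 81.7 in slow and 2666 ± 185 in fast cells, with a log2 change of -0.35 ± 0.12 that did not pass (limma adjusted p = 0.313). These arrays also did not overlap, but nor did those of most tested member probe sets in this comparison, which was called for 1 of 12. The unadjusted 95% interval of the change ran from -0.62 to -0.08. Under the deposited scaling, where the median of all probe sets moved to 1.04, its sign turned (0.70 ± 0.95). The fast minus slow change of the C6SPGFP set exceeded that of C6 by 5.01 ± 0.17 (limma adjusted p = 3.5e-06).

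Between the sets, Tubb2b was higher in C6SPGFP both in slow cells, 2.02-fold (log2 change 1.01 ± 0.12, limma adjusted p = 0.00262), and in fast cells, 65-fold (6.02 ± 0.12, limma adjusted p = 4.96e-08). The comparisons in slow and fast cells share their arrays with the fast minus slow comparisons, so they are not separate evidence. The call in slow cells ended under the deposited scaling (0.76 ± 0.95, limma adjusted p = 1). There the array on another scale widened the spread shared by all comparisons, also those that do not use this array. In slow cells 2 probe sets in all were then called. The calls in C6, in fast cells and on the difference held in all 8 runs that each left out an array and under every other setting tried. Without C6SPGFPfast replicate 1, the array on another scale, the changes were -5.37, 6.01 and 4.95. The other Tubb2b probe set, X03369_i_at, was at or below 6.23 on every array and was not tested. Tubb2b is very similar in sequence to other beta-tubulins, Tubb2a above all. A probe set ending in _s_at can be shared by related transcripts, so a share of another isotype in this signal cannot be told apart from Tubb2b.

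The sequence upstream of Tubb2b is shown beside that of Tubb5 because these are the beta-tubulin genes among the members. Both are the 250 bases before the annotated start, from RefSeq on GRCr8, 5′ to 3′ in the direction of the gene: chr17:30952836-30953085 for Tubb2b and chr20:2917327-2917576 for Tubb5, both on the plus strand. Of the 7 genes 5 matched this table. Capitals mark exact matches, on either strand, to 5 short promoter motifs. The CCAAT box was searched by the letters of its name. The GC box, which Sp1 binds, was GGGCGG. The TATA box of many regulated genes was TATAAA. The E box of helix-loop-helix factors was CANNTG. The core of the cyclic AMP response element (CRE) was TGACG. No 2 matches overlap in the 2 sequences printed.
Tubb2b: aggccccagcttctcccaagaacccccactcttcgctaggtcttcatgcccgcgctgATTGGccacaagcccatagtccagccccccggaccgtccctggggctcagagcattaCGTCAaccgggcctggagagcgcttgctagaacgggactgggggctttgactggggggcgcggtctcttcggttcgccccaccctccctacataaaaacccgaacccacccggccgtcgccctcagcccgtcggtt
Tubb5: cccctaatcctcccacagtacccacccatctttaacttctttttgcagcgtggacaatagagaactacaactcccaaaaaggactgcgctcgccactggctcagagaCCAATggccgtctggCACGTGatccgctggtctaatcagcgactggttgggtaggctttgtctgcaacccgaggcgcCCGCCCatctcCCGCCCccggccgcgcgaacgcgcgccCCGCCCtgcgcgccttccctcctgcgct
The Tubb2b stretch held 1 CCAAT box, read on the minus strand from 193 to 189 bases before the start, and 1 CRE core on the minus strand from 136 to 132 bases before it. It held none of the other 3 motifs. The Tubb5 stretch held 1 CCAAT box, 3 GC boxes on the minus strand and 1 E box, and no CRE core. Among 33469 stretches of the same length, 34% held the CCAAT box, 30.5% the GC box, 12.9% the TATA box, 65.5% the E box and 18.2% the CRE core. Both stretches were rich in CG dinucleotides, with 19 in Tubb2b and 22 in Tubb5 against a median of 5. A match is a string of letters and no measured site of binding.

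Tubb5, the beta-tubulin that most cells make, had 2 probe sets, of which 1 was among the brightest signals on every array. The brighter one ends in _s_at, so a share of related isotypes in its signal cannot be told apart. Probe set rc_AA860030_s_at gave 3856 and 4280 in C6slow, 4779 and 4280 in C6fast, 3877 and 3816 in C6SPGFPslow, and 3856 and 3584 in C6SPGFPfast. Its slow and fast arrays overlapped in both sets. The change in fast C6 cells was 0.15 ± 0.09 (95% interval -0.06 to 0.37, limma adjusted p = 0.431) and in fast C6SPGFP cells -0.05 ± 0.09 (-0.26 to 0.16, limma adjusted p = 0.913). The other probe set, AB011679_at, lay between 397 and 784 on the 8 arrays and passed in no comparison. Its largest change was that of fast C6SPGFP cells, 0.53 ± 0.20 (limma adjusted p = 0.398). Over the 8 arrays the Tubb5 probe sets had a Pearson's r of 0.18 with each other, so they did not vary together.

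Quantile normalization ties the brightest probe sets to their rank, and Tubb5 (rc_AA860030_s_at) ranked between 1 and 21 on every array. Where each array was scaled by its trimmed mean instead, this probe set was lower in C6SPGFP than in C6 among fast cells (-0.78 ± 0.13, limma adjusted p = 0.0034), against -0.28 ± 0.09 with an adjusted p of 0.0776. Its deposited signals were 3600.7 and 4031.0 on the C6fast arrays and 2202.0 on C6SPGFPfast replicate 2, which are on a common scale. The changes between fast and slow cells did not pass under either scaling.

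The shared alpha-tubulin probe sets also ranked near the top. Probe set V01227_s_at, annotated to Tuba1a and Tuba1b, gave 2594 and 2943 in C6slow, 1954 and 2089 in C6fast, 2964 and 3177 in C6SPGFPslow, and 2618 and 2943 in C6SPGFPfast. The C6fast arrays were lowest and did not overlap with any other group. The fall in fast C6 cells was 1.37-fold (-0.45 ± 0.11, limma adjusted p = 0.0408), and among fast cells C6SPGFP was higher by 0.46 ± 0.11 (limma adjusted p = 0.0215). Neither call was firm. Both ended without the variance trend (limma adjusted p = 0.196 and 0.123) and under the deposited scaling (-0.50 ± 0.91 and 1.21 ± 0.91). The first ended without C6slow replicate 2 (adjusted p = 0.146), C6fast replicate 1 (0.173) or 2 (0.126), C6SPGFPslow replicate 1 (0.0752) or 2 (0.0733), or C6SPGFPfast replicate 2 (0.0539). It also ended when arrays were scaled by the trimmed mean (-0.46 ± 0.15, adjusted p = 0.128) and, in C6, without the filter (0.0818) or the arrays of the C6SPGFP groups (0.13). The second ended without C6fast replicate 1 (0.126) or 2 (0.0669) or C6SPGFPfast replicate 2 (0.14), and with trimmed-mean scaling it was 0.05 ± 0.15 (adjusted p = 0.881).

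Probe set J00797cds_s_at, annotated to Tuba1a, Tuba1b, Tuba1c and a pseudogene, gave 3142 and 3295 in C6slow and 3061 and 3267 in C6fast, which overlapped. It gave 3418 and 3649 in C6SPGFPslow and 3778 on both C6SPGFPfast arrays, where it held the same rank. No comparison was called for it. Its change in fast C6 cells was -0.02 ± 0.08 (95% interval -0.21 to 0.16), and under trimmed-mean scaling its sign turned (0.03 ± 0.13). Since the shared probe sets overlap in the genes they list and gave different values, no direction is given here for Tuba1a.

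**Figure D2:**
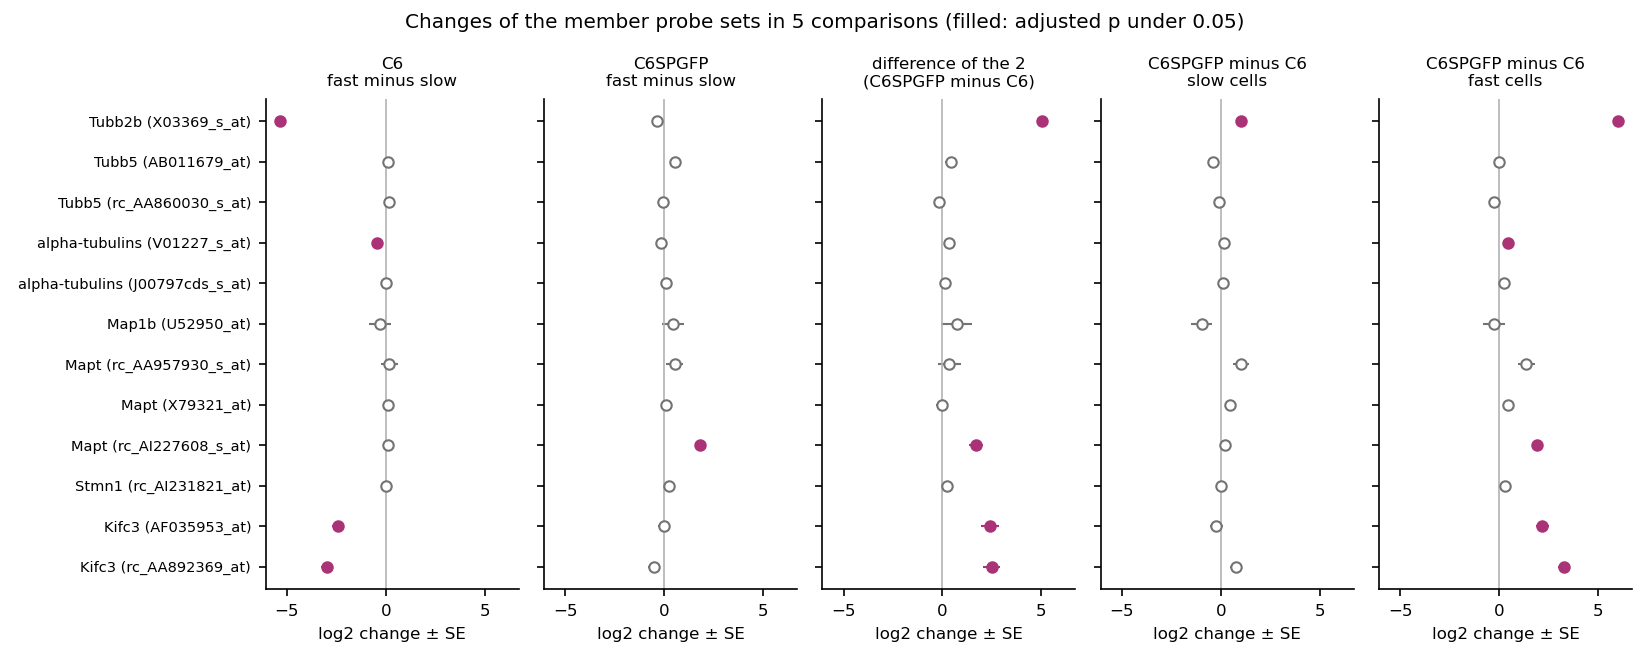
Log2 change ± SE (horizontal axis) of the 12 tested member probe sets in 5 comparisons, from the linear model on 8 arrays. Filled points have a limma adjusted p under 0.05. Tubb2b and both Kifc3 probe sets lie to the left in C6 fast minus slow and to the right in C6SPGFP minus C6 among fast cells, while Tubb5 and Stmn1 lie near 0.

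Kifc3 is a kinesin of the family that moves towards the minus end and takes part in transport along microtubules in epithelial cells. It followed Tubb2b in direction from slow to fast C6 cells and between the sets in fast cells. Probe set rc_AA892369_at gave 136 and 141 in C6slow and 15.5 and 6.3 in C6fast. It gave 189 and 314 in C6SPGFPslow and 158 and 178 in C6SPGFPfast. Probe set AF035953_at gave 32.7 and 65.9 in C6slow, 2.61 and 1.96 in C6fast, 37.7 and 40.7 in C6SPGFPslow, and 47.1 and 32 in C6SPGFPfast. In both, the C6fast arrays were lowest and overlapped with no other group. The falls in fast C6 cells were 8-fold (-3.00 ± 0.30, limma adjusted p = 0.000493) and 5.33-fold (-2.42 ± 0.31, limma adjusted p = 0.00205). Over the 8 arrays these probe sets had a Pearson's r of 0.93.

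Signals of a few units, such as those of AF035953_at in C6fast, are not shown to be above background, so the size of this fall depends on the pseudocount. It ranged from -3.86 with a pseudocount of 1 to -1.22 with one of 32. With the same pseudocounts it ranged from -3.67 to -2 for rc_AA892369_at. Both C6 calls held in all 8 runs without an array and ended under the deposited scaling alone (adjusted p = 0.444 and 1). Among fast cells Kifc3 was higher in C6SPGFP by 3.26 ± 0.30 and 2.19 ± 0.31 (limma adjusted p = 0.000219 and 0.00204), and these calls held under every setting. Among slow cells, where Tubb2b was called higher in C6SPGFP, neither Kifc3 probe set passed. The changes were 0.78 ± 0.30 for rc_AA892369_at and -0.22 ± 0.31 for AF035953_at (limma adjusted p = 0.181 and 0.751).

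In the C6SPGFP set the Kifc3 changes between fast and slow cells were -0.52 ± 0.30 and -0.01 ± 0.31 (limma adjusted p = 0.632 and 0.999). The difference from the change in C6 was 2.48 ± 0.42 and 2.41 ± 0.44 (limma adjusted p = 0.0145 and 0.02). Over the 8 runs that each left out an array, this difference ranged from 2.14 to 2.87 for rc_AA892369_at and from 1.79 to 2.89 for AF035953_at. The call did not hold in all of these runs, in which 1 group had a single array. For rc_AA892369_at it ended without C6SPGFPslow replicate 1 (2.14, adjusted p = 0.0569), C6SPGFPfast replicate 1 (2.33, 0.0519) or C6SPGFPfast replicate 2 (2.42, 0.0694). For AF035953_at it ended without C6fast replicate 1 (0.0537) or 2 (0.0703), C6SPGFPslow replicate 1 (0.0772) or 2 (0.0738), or C6SPGFPfast replicate 1 (1.79, 0.114). With a pseudocount of 32 it was 1.21 ± 0.28 (0.0564).

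Mapt, the protein tau, which stabilises microtubules in axons, had 3 tested probe sets, of unequal brightness. Over the 8 arrays r was 0.91 between rc_AA957930_s_at and X79321_at, and 0.70 and 0.68 between these and rc_AI227608_s_at. Probe set rc_AI227608_s_at gave 2.66 and 2.96 in C6slow, 3.51 and 3.52 in C6fast, and 4.94 and 3.85 in C6SPGFPslow. On the C6SPGFPfast arrays it gave 29.6 and 41.4, above all others. In means it was 4.39 ± 0.769 in slow and 35.5 ± 8.29 in fast C6SPGFP cells (SD, n = 2). Its mean over all arrays, 11.6, passed the filter of 8 only through C6SPGFPfast, so the filtered fit had selected it by that group and its p-values there support nothing. In the fit without a filter, over all 8740 probe sets, it rose by 1.80 ± 0.18 in fast C6SPGFP cells (limma adjusted p = 0.00579). The change in C6 was 0.09 ± 0.18 (limma adjusted p = 0.882), and the difference between them was 1.71 ± 0.25 (limma adjusted p = 0.0151).

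The low signals of this probe set limit these values. With the filter, the C6SPGFP call ended without C6SPGFPslow replicate 1 (adjusted p = 0.051) or 2 (0.115). Without either C6SPGFPfast array the probe set fell below the filter and was not tested. The call on the difference ended in each of the 6 runs with 7 arrays that tested it (adjusted p 0.0738 to 0.147). Among fast cells it was higher in C6SPGFP by 1.90 ± 0.18 in the fit without a filter (limma adjusted p = 0.000753).

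The other Mapt probe sets were brighter. The signals of rc_AA957930_s_at were 76.9 and 20.7 in C6slow, 50.1 and 45.7 in C6fast, 92.9 and 93.0 in C6SPGFPslow, and 128 and 147 in C6SPGFPfast. All 4 C6SPGFP arrays lay above the 4 C6 arrays, but the C6slow arrays differed widely. The change between the sets was 1.03 ± 0.42 in slow cells (limma adjusted p = 0.208) and 1.38 ± 0.42 in fast cells (limma adjusted p = 0.0612), and neither passed. The second passed with trimmed-mean scaling (limma adjusted p = 0.0259) and with a pseudocount of 32 (0.0366). It also passed with the filter at 32 (0.0455) and with only the arrays compared (0.00982). Without C6slow replicate 1 both passed, at 1.83 ± 0.23 (0.0121) and 1.38 ± 0.19 (0.00273), and without C6slow replicate 2 the second did (0.00248), while the first dropped to 0.25 ± 0.22 (0.591). Probe set X79321_at lay between 44.8 and 59.6 in C6 and between 69.6 and 86.5 in C6SPGFP, again without overlap, with changes between the sets of 0.46 ± 0.21 in slow and 0.44 ± 0.21 in fast cells (limma adjusted p = 0.254 and 0.206). Between fast and slow cells neither of these probe sets passed in either set, and the changes of X79321_at were 0.11 ± 0.21 and 0.10 ± 0.21.

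Map1b, a microtubule-associated protein of growing axons, was at the bottom of the measured range. Its tested probe set, U52950_at, gave 24.3 and 7.42 in C6slow, 3.87 and 20.2 in C6fast, 3.10 and 3.67 in C6SPGFPslow, and 1.91 and 15.8 in C6SPGFPfast. Replicates of C6slow, C6fast and C6SPGFPfast differed widely, no comparison was called, and the 95% interval of the change in fast C6 cells ran from -1.55 to 0.98. The other probe sets, U52950_g_at and X16623cds_s_at, stayed at or below 6.85 and 4.34 on every array and were not tested.

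Stmn1, stathmin, which is abundant in dividing cells, was bright and even. Its signal was 1357 and 1233 in C6slow, 1319 and 1230 in C6fast, 1265 and 1389 in C6SPGFPslow, and 1463 and 1635 in C6SPGFPfast. The slow and fast arrays overlapped in C6, where the change was -0.02 ± 0.12 (95% interval -0.29 to 0.24, limma adjusted p = 0.953). In C6SPGFP the fast arrays lay above the slow ones, with a change of 0.22 ± 0.12 (-0.05 to 0.49, limma adjusted p = 0.593). Both C6SPGFPfast arrays also lay above both C6fast arrays, with a change of 0.28 ± 0.12 that did not pass (limma adjusted p = 0.157). Of 6 proliferation markers with a probe set, Pcna was called, higher in C6SPGFP than in C6 among fast cells, and none was called between fast and slow cells of either set. Their summed signal was 4882 to 5042 in C6slow, 5355 to 5662 in C6fast, 4801 to 5187 in C6SPGFPslow and 6167 to 6307 in C6SPGFPfast.

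**Figure D3:**
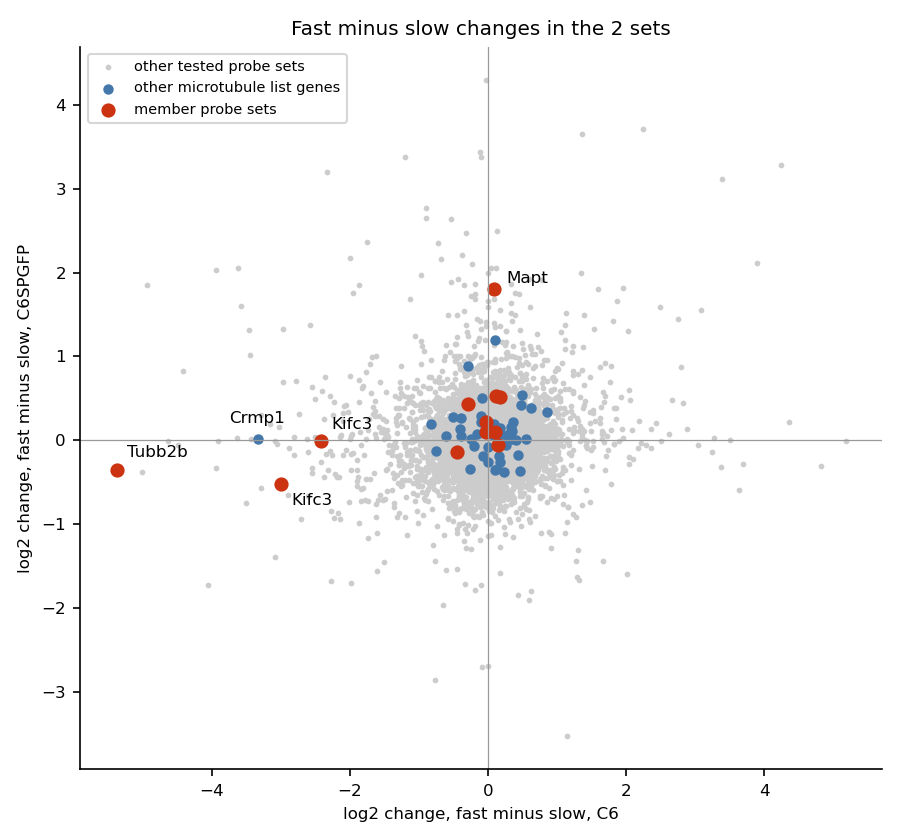
Log2 change from slow to fast cells in C6 (horizontal) and in C6SPGFP (vertical) for all 6686 tested probe sets, with the 12 member probe sets in red and the other genes of the microtubule list in blue. Tubb2b (-5.37 and -0.35), both Kifc3 probe sets and Crmp1 lie to the left with vertical values of -0.52 to 0.01, and 1 Mapt probe set lies high with a horizontal value of 0.09.

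A list of 159 tubulin and microtubule genes gave the setting, with 1 probe set per gene, the brightest. Of these, 52 were tested, 6 of them members. In fast C6 cells 4 of 52 fell and none rose (7.69% called, against 6.66% of all probe sets). At an unadjusted limma p under 0.05, 4 were higher and 6 lower. The median change of the list was 0.10, against 0.01 for all probe sets tested. Without the 6 members, 2 of 46 fell (4.35%).

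Those 2 were Crmp1 and Clip2. Crmp1, a collapsin response mediator protein that binds tubulin and acts in axon guidance, had signals of 210 and 265 in C6slow, 7.58 and 30.2 in C6fast, 261 and 237 in C6SPGFPslow, and 246 and 254 in C6SPGFPfast. The C6fast arrays were lowest, without overlap. In fast C6 cells it fell by 3.32 ± 0.36 (log2, limma adjusted p = 0.00086). In C6SPGFP the change was 0.01 ± 0.36, and the difference between the sets was 3.33 ± 0.51 (limma adjusted p = 0.0102), a call that ended without C6SPGFPslow replicate 2 (0.0504) or C6SPGFPfast replicate 2 (0.0509). Clip2, a linker at microtubule plus ends, fell by 0.75 ± 0.19 in C6 (limma adjusted p = 0.0487), a call that each of the 8 runs with 7 arrays ended (adjusted p 0.0642 to 0.195).

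By family, the tested genes that fell in fast C6 cells were 1 of 4 tubulins, 1 of 11 structural microtubule-associated proteins, 1 of 5 kinesins and 1 of 3 plus-end proteins. None of 4 destabilising or severing proteins, 11 dynein and dynactin subunits or 14 folding factors and regulators was called by limma, though 3 dynein and dynactin genes and 1 regulator had an unadjusted p under 0.05. The other tubulins on the list were Tuba1b, with a change of 0.19 ± 0.09 in C6 on a probe set of its own (limma adjusted p = 0.296), and the gamma-tubulin Tubg1 of the nucleation complex, at -0.28 ± 0.29 (limma adjusted p = 0.681). Kifc1, the mitotic relative of Kifc3, was at 0.85 ± 0.25 (limma adjusted p = 0.0883), opposite in sign to Kifc3. The neuronal microtubule-associated protein Map2 was at 0.24 ± 0.28 (limma adjusted p = 0.726). These 4 uncalled genes were picked for mention after their values were seen.

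In fast C6SPGFP cells none of the 52 was called by limma, against 1.39% of all probe sets, and 2 were higher and 1 lower at an unadjusted p under 0.05. The Mapt probe set that rose is not the brightest and is not counted in the list. The median change of the list was 0.06, against -0.02 for all probe sets. Between the sets in slow cells 1 of 52 was called, Tubb2b, against 6.33% of all probe sets, with 9 higher and 4 lower at an unadjusted p under 0.05.

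Between the sets in fast cells 12 of 52 were called (23.1%, against 15.6% of all probe sets), 8 higher and 4 lower in C6SPGFP, with a list median of -0.05 against -0.04. After Tubb2b, Crmp1 (3.40 ± 0.36) and Kifc3, the largest called increases were those of Dpysl3, a relative of Crmp1 (1.24 ± 0.34, limma adjusted p = 0.0427), and Clip2 (0.93 ± 0.19, limma adjusted p = 0.0111). Dpysl3 was dim, with signals of 1.9 and 12.2 in C6fast and 29.9 and 21.6 in C6SPGFPfast, and its change ranged from 0.57 to 2.10 over the settings that kept all arrays (adjusted p = 0.0622 with a pseudocount of 1). Dync1li2, Dynlt1 and Spast, named here after their values were seen, were higher by 0.66 to 0.79 on their brightest probe sets. The other Dync1li2 probe sets gave -0.20 ± 0.20 and 0.05 ± 0.21 (limma adjusted p = 0.568 and 0.915), and the other of Dynlt1 gave 0.59 ± 0.15 (limma adjusted p = 0.0276). The decreases were those of Dync1h1, the motor chain of cytoplasmic dynein (-1.27 ± 0.16, limma adjusted p = 0.00127), the kinase Gsk3b, which phosphorylates tau (-1.06 ± 0.19, limma adjusted p = 0.00652), the depolymerising kinesin Kif2c (-0.87 ± 0.19, limma adjusted p = 0.015) and the dynein regulator Pafah1b1 (-0.77 ± 0.16, limma adjusted p = 0.0147). The signs of Gsk3b, Kif2c and Pafah1b1 turned under the deposited scaling, where the median of all probe sets moved to 1.11. Dync1h1 had signals of 497 and 448 in C6fast and 195 and 185 in C6SPGFPfast.

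Several of these calls did not hold in every run with 7 arrays, in which 1 group had a single array. Over these 8 runs the change of Spast stayed at 0.61 to 0.70 and that of Kif2c at -0.90 to -0.84. The change of Dpysl3 ranged from 0.75 to 1.80 and that of Pafah1b1 from -0.96 to -0.56. Leaving out 1 of 8 arrays ended the call of Spast in all 8 runs (adjusted p 0.0521 to 0.209), of Dpysl3 in 7 runs (adjusted p up to 0.187), of Kif2c in 4, of Pafah1b1 in 3 (both up to 0.0814) and of Clip2 in 2, without C6fast replicate 2 (0.0568) or C6SPGFPfast replicate 2 (0.091). Those of Kif2c ended without either C6fast or either C6SPGFPfast array, and those of Pafah1b1 without C6fast replicate 1 or either C6SPGFPfast array. That of Dync1li2 ended in 3, without C6fast replicate 2 (0.0726) or C6SPGFPfast replicate 1 (0.0733) or 2 (0.0676). The single run that kept the call of Dpysl3 left out C6fast replicate 2. Crmp1, Dync1h1, Gsk3b and Dynlt1 kept theirs in all 8. A further Gsk3b probe set gave -0.91 ± 0.20, and further Pafah1b1 probe sets gave -0.93 ± 0.22 and 0.41.

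**Figure D4:**
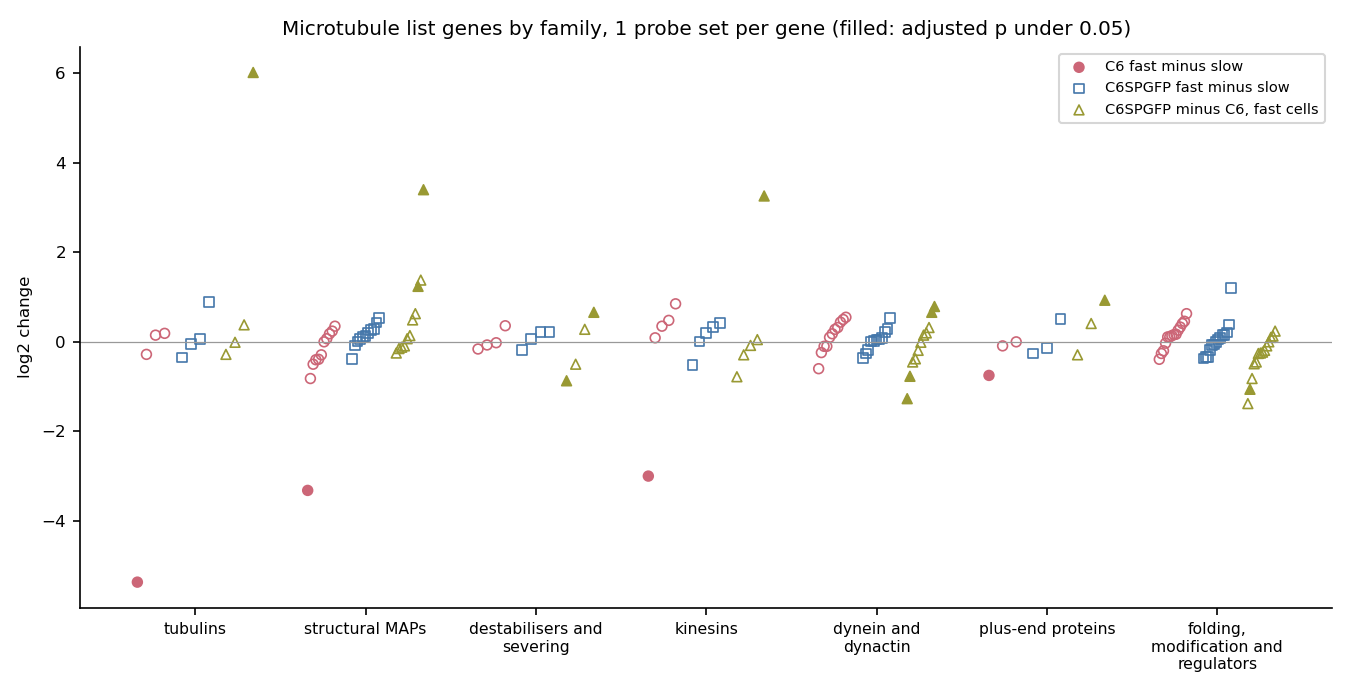
Log2 change (vertical) of the 52 tested genes of the microtubule list, 1 probe set per gene, by family (horizontal) and comparison (colour and shape). Filled symbols have a limma adjusted p under 0.05. In C6 fast minus slow 4 genes are filled, all below 0, in C6SPGFP fast minus slow none, and in C6SPGFP minus C6 among fast cells 12, on both sides of 0.

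Markers of other cell types were read beside the members. Of 13 neuronal markers with a probe set, the ubiquitin hydrolase Uchl1 and Gad1, the enzyme that makes GABA, fell in fast C6 cells and none rose. The summed signal of the 13 was 1494 to 1577 in C6slow, 961 to 1086 in C6fast, 1384 to 1551 in C6SPGFPslow and 1350 to 1415 in C6SPGFPfast. Like Tubb2b and Kifc3 it was lowest in C6fast, but unlike Tubb2b it was no higher in C6SPGFPslow than in C6slow. Most of it was Uchl1, with group means of 728 to 1163, and the means of Nefh, Gap43 and Snap25 were higher in C6fast than in C6slow without passing the test. Between the sets, Gad1 was called higher in C6SPGFP among slow and fast cells, and Gap43 among fast cells. No other neuronal marker was called between the sets. The means of Gad1 were 24.7 in C6slow, 2.55 in C6fast, 112 in C6SPGFPslow and 118 in C6SPGFPfast. The synaptic proteins Syt1 and Slc17a7 stayed below the filter, with group means up to 6.02 and 3.72. Of 6 glial markers S100b, Nes and Ptprz1 fell in fast C6 cells. The sum was 4734 to 5140 in C6slow and 3334 to 3569 in C6fast, against 6424 to 6517 and 6929 to 7219 in C6SPGFPslow and C6SPGFPfast. Vim, its largest part with group means of 2658 to 3711, was not called between fast and slow cells. Gja1 went the other way, with means of 27.2 in C6slow, 33.5 in C6fast, 3.68 in C6SPGFPslow and 10.6 in C6SPGFPfast. It was called lower in C6SPGFP among both slow and fast cells. S100b and Ptprz1 were called higher in C6SPGFP among slow cells, and Vim, S100b, Nes, Cd44 and Ptprz1 among fast cells. Of 6 microglial and haematopoietic markers 1 rose in fast C6 cells, Cd37, and the sum was 84.7 to 91.3 in C6slow, 136 to 144 in C6fast and 90.4 to 101 in the C6SPGFP groups. Of 3 endothelial markers 2 were tested and none was called, with sums of 31.0 to 45.6 in all groups. The part of other cells in the members' changes was not tested, and in bulk RNA fewer cells of a kind and less RNA per cell cannot be told apart.

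The genes most like each called member probe set were taken by Pearson's r over the 8 arrays, among 1093 probe sets whose group means spanned at least 1 on the log2 scale. The points share arrays and fall into 4 groups, so r is a description. For Tubb2b they were Gas6, a ligand of TAM receptors (0.998), the glial transcription factor Sox10 (0.998) and the lipid droplet protein Plin2 (0.995). Sox10 had mean signals of 304 in C6slow, 1.56 in C6fast, 551 in C6SPGFPslow and 422 in C6SPGFPfast, the same order of groups as Tubb2b. In all, 68 of these 1093 probe sets reached an r of 0.95 with Tubb2b, so its pattern was not its own alone. For Kifc3 they were Ggcx (0.997), Endod1 (0.991) and the small GTPase Rhob (0.990) by rc_AA892369_at, and the cofilin kinase Limk1 (0.991), Rnf130 (0.983) and Grb14 (0.976) by AF035953_at. For the Mapt probe set that rose they were the synuclein Sncg (0.994), Ass1 (0.990) and Fxyd1 (0.990), and 12 reached 0.95. For the shared alpha-tubulin probe set V01227_s_at they were Tst (0.977), Iqgap2 (0.977) and the proteoglycan Agrn (0.970). An r of 0.95 was reached by 53 probe sets with rc_AA892369_at, 20 with AF035953_at and 10 with V01227_s_at.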

How the data were processed

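RNA of 8 C6 samples was measured on 1-colour oligonucleotide arrays. The authors deposited 1 table of linear signal intensity per probe set (0 to 14287.9; 8799 probe sets, of which 59 are controls). How the signals were computed is not stated in the labels, and detection calls were not used.

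Signals of the 8740 other probe sets were quantile normalised with limma 3.58.1 in R 4.3.3. Probe sets with a mean signal of at least 8 were tested (6686; 2054 were left out) on log2(signal + 8) in a linear model of 4 group means (lmFit, eBayes with a trend, two-sided). P-values were adjusted by Benjamini and Hochberg's method over all 6686, and 5% was the threshold. The fit had 4 residual degrees of freedom, and the median SE was 0.241, or 0.341 on the difference between sets. Checked on simulated data for C6 fast minus slow (6653 probe sets), it recovered 42% of changes of 1 and 80% of changes of 2 (log2), and 6.87% of calls were false.

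Genes were named from GEO's annotation of the platform, where 7006 probe sets had a single symbol, 308 several and 1426 none. Current symbols were found for 6985 through Entrez identifiers (GRCr8 table).

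Named were all members, up to 5 called list genes per direction and comparison, and the 3 genes most like each called member probe set. Members and lists were chosen with earlier results of these data known. Alternatives covered scaling, pseudocount, filter, trend, arrays fitted, replicate block and each array left out. Replicate numbers were not taken as pairs, since the labels do not say that they mark a shared culture or day.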

Additional observations from a re-analysis of the deposited data

Results flagged for a closer look

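The change from slow to fast cells differed between the C6 and C6SPGFP sets for 4 of 12 tested member probe sets. This was by the test of the difference itself (C6SPGFP minus C6, limma). It also differed for 1 of the 46 other tested genes of the microtubule list (2.17%), against 3.81% of all probe sets. With the members, 3 of 52 list genes were called (5.77%). The difference was 5.01 for Tubb2b, 2.48 and 2.41 for the Kifc3 probe sets, 1.71 for the Mapt probe set rc_AI227608_s_at and 3.33 for Crmp1. The Mapt probe set passed the filter only through C6SPGFPfast, where it was high. Its difference passed in the fit without a filter (limma adjusted p = 0.0151), and in each of the 6 runs with 7 arrays that tested it the call ended. The calls of both Kifc3 probe sets and of Crmp1 also ended in some of the runs with 7 arrays, and that of Tubb2b in none. For Tubb2b, Kifc3 and Crmp1 the fast C6 cells were low, and for Mapt the fast C6SPGFP cells were high.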

How the results depend on the processing

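Without quantile normalization, on the deposited scaling, the array on another scale widened the spread and moved the median change of all probe sets to 1.04 in C6SPGFP, 1.08 on the difference and 1.11 among fast cells. Calls then numbered 1 member probe set, 1 list gene and 20 probe sets in all in C6; 0 members and 15 in all in C6SPGFP; 1, 1 and 24 on the difference; 0, 0 and 2 between sets in slow cells; and 3 list genes and 182 in all in fast cells. Of all calls, 100% were then higher in C6SPGFP fast cells (76.3% after quantile normalization), 95.8% on the difference (71%) and 94% between sets in fast cells (52.8%). The changes of Pafah1b1 (0.39), Gsk3b (0.18) and Kif2c (0.40) between sets in fast cells turned sign there, below that median shift. With the filter at 32, no member was tested and called in C6SPGFP (0), since the Mapt probe set was left out, and 4 list genes were called between sets in slow cells. Fitting only the arrays compared gave 225 calls in C6 and 267 between sets in slow cells. For these counts the cause was not tested. The deposited scaling also ended the calls of Crmp1 in C6 (adjusted p = 0.185), of the shared alpha-tubulin probe set (0.411 in fast cells), of Mapt in C6SPGFP (0.0839) and of Kifc3 and Mapt on the difference (0.703), and a pseudocount of 1 ended that of Mapt on the difference (2.50, 0.0969). Between sets in fast cells, 3 uncalled member probe sets passed with the filter at 32: rc_AA860030_s_at of Tubb5 (-0.28, adjusted p = 0.0496), J00797cds_s_at (0.26, 0.0469) and rc_AA957930_s_at of Mapt (1.38, 0.0455). The sign of J00797cds_s_at turned with trimmed-mean scaling (-0.20), and that of the Tubb5 probe set under the deposited scaling (0.38).

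Leaving out 1 array at a time gave 3 to 4 member calls, 3 to 5 list calls and 280 to 446 in all in C6 (445 with every array); 0 to 1, 0 to 1 and 21 to 107 in C6SPGFP (93); 1 to 3, 1 to 4 and 122 to 268 on the difference (255); 1 to 2, 1 to 2 and 95 to 418 between sets in slow cells (423); and 3 to 6, 6 to 13 and 510 to 1133 in fast cells (1043). Replicate deviations of the groups compared correlated at 0.266 in C6, 0.104 in C6SPGFP, 0.027 in slow and 0.028 in fast cells. With the replicate number as a block, 425, 87, 236, 392 and 991 probe sets were called in the 5 comparisons, and the Mapt difference (adjusted p = 0.0581) was the single member call that ended. Among list genes the block ended the calls of Clip2 in C6 (0.067) and of Dpysl3 (0.0513) and Spast (0.0609) between sets in fast cells, and it changed no other call of a named member or list gene. Array depth cannot be given, and signals of a few units have no measured background.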
